A study of Mus musculus with 9 samples.

Results

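The genes described here are 46 imprinted mouse genes that lie outside the Sfmbt2 locus. They were taken from a list of gene symbols, matched through their Ensembl identifiers to the table of read counts per gene, and grouped by imprinted cluster and by the parental copy that is known to be expressed. All 46 were among the 55401 genes of the table. They fall into 18 clusters, with 20 genes expressed from the paternal copy, 25 from the maternal copy, and Gnas, which gives transcripts of both kinds. RNA-seq was done on total RNA (Trizol) from XEN cells, stem cells of the extra-embryonic endoderm, female and from a cross of Mus musculus molossinus with Mus musculus. The study asked what a deletion upstream of Xist, the non-coding RNA that silences the X chromosome, does in these cells. WT_EV (n = 3) is wild type, DXp (n = 2) carries the deletion on the paternal X, DXp_DXm (n = 2) carries it on both X chromosomes, and WT_clone (n = 2) holds clones of wild type. All 4 groups share the XEN line, medium with serum, and no further treatment in the labels. The libraries were made with a stranded kit. More than 1 make of kit is named, and which library had which is not stated. The series text places the deletion upstream of Xist, while the genotype tags name a deletion of Xist itself. The meaning of EV, the ends of the deletion and the sex of the WT_clone cells are not stated in the sources used here. Titles call both DXp libraries D1 and both DXp_DXm libraries D3, and the labels give 2 biological replicates for each deletion. The DXp titles carry a pair of replicate numbers that disagree, and the number after rep is used here, so that DXp replicate 1 is the library whose other number is 2. D1 and D3 may each be 1 line, in which case line and genotype cannot be told apart. Separate cultures are not stated for WT_EV, and p-values therefore cover the spread between these samples alone, which may be technical.

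An imprinted gene is expressed mainly from the copy inherited from 1 parent, because DNA methylation laid down in the egg or the sperm marks a control region in its cluster. In several clusters a long non-coding RNA made from the paternal copy, such as Airn or Kcnq1ot1, silences neighbouring genes on the same chromosome. Many imprinted genes act on growth, and the extra-embryonic tissues, in which the paternal X is also the silenced one, are where several maternally expressed genes of the Kcnq1ot1 and Igf2r clusters are imprinted. The values below are counts summed over both parental copies. Whether a change came from the expressed or the silenced copy was not measured. Whether each gene is imprinted in XEN cells was not measured either, so paternal and maternal below name the list a gene is on.

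Total counts per library were 14352719 to 29335803, and the 46 genes took 0.198 to 0.366% of them. Levels are given as CPM, the count scaled by the TMM-adjusted library total. Xist was at 689 to 1562 CPM in WT_EV, 15447 to 17314 CPM in DXp and 5460.0 to 8951 CPM in DXp_DXm. Since the ends of the deletion are not given, these levels do not check the genotype labels. WT_EV stood apart in the RNA classes its libraries held. The 7SK RNA gene Rn7sk took 157188 to 255029 counts per WT_EV library but 2 to 7 per deletion library. Replication-dependent histone genes took 0.984 to 2.47% of counts against 0.00129 to 0.00686%. This difference and the genotype cannot be told apart in any comparison with WT_EV. The 15 XEN markers summed to 35309 to 47112 CPM in WT_EV, 18274 and 34163 CPM in DXp and 25199 and 27627 CPM in DXp_DXm. In DXp replicate 1, Col4a1 was at 0 and Col4a2 had 4 counts. DXp replicate 2 had 51355 and 8241 counts of them, and WT_EV 92225 to 284971 and 41913 to 120330. Against WT_EV, 2 of the 15 were higher and 3 lower in DXp, and 3 were higher and 4 lower in DXp_DXm, where 72.3% and 66.8% of all tested genes passed in either direction. With the offsets for GC content and length described below, 7 were higher and 0 lower in DXp, and 5 higher and 0 lower in DXp_DXm, where 50.6% and 42.3% of all tested genes passed. Markers of other cell types summed to 0.540 to 1.85 CPM for trophoblast, 0.705 to 3.75 CPM for pluripotent cells and 0.502 to 1.69 CPM for fibroblasts. Neural markers summed to 3.30 to 13.7 CPM in WT_EV, nearly all of it Tubb3, and to 0.511 to 1.49 CPM in the deletion libraries. Of these 4 lists, Hand1, Sox2, Col3a1 and Neurod1 were among the genes with no count in any library. Others had counts in every library, such as Eomes (6 to 46), Klf2 (4 to 43), Pdgfrb (13 to 38) and Tubb3 (8 to 255). The part of these marker levels in the results below was not tested.

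Promoter sequence is shown for 4 loci on which the results below turn. They are Plagl1, the member with the largest rise in DXp, Kcnq1ot1, whose cluster held the largest fall, the stretch between the divergent genes Peg3 and Usp29, and Grb10, which had 2835 counts in 1 library and at most 10 in each other. The sequences are from RefSeq on build GRCm38.p6, read 5′ to 3′ on the strand named, and stop short of any annotated exon. Capitals mark the CCAAT box (CCAAT, or ATTGG where it lies on the other strand), a motif of many promoters. Plagl1 is chr10:13090582-13090690 on the plus strand, Kcnq1ot1 is chr7:143296550-143296797 on the minus strand, the stretch between Peg3 and Usp29 is chr7:6730432-6730577 on the minus strand, and Grb10 is chr11:12037421-12037670 on the minus strand.
Plagl1: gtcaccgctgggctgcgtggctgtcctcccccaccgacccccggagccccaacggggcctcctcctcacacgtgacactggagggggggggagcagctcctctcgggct
Kcnq1ot1: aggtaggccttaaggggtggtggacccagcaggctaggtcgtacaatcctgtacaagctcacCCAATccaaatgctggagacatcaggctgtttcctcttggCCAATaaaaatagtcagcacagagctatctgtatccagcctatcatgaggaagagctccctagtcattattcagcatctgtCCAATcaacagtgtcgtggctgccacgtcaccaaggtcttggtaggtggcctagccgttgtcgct
Peg3 to Usp29: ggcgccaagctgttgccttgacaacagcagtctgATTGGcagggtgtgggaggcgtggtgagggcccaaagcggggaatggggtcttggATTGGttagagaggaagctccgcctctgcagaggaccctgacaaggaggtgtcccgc
Grb10: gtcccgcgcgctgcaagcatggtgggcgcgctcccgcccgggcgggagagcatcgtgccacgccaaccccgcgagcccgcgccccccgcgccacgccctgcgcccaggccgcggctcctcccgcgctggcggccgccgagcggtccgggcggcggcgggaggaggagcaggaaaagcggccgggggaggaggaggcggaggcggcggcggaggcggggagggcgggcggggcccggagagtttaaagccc
The Kcnq1ot1 stretch held 3 CCAAT boxes in 248 bases and the stretch between Peg3 and Usp29 held 2 in 146 bases. The Grb10 stretch held none, but 40 CpG pairs in 250 bases and a GC content of 81.2%. It was printed because it is the Grb10 window with the most CpG pairs, so a high count was set by that choice. The other Grb10 window, chr11:12027972-12028221, held 8 CpG pairs at 54% GC. The Plagl1 stretch held no CCAAT and 7 CpG pairs in 109 bases. Of the 32851 windows of 250 bases upstream of a gene start in the RefSeq table, 33.85% held CCAAT on either strand, 2.791% held 3 or more, and 1.306% held 40 or more CpG pairs. A window was given for 36 of the 46 genes, 54 windows in all. The hexamer TGCCGC, the core of the motif bound by the imprint-protecting factor ZFP57 when methylated, was searched as TGCCGC or GCGGCA. It was in 8 of the 54 windows (14.8%), in 7 genes, against 8.676% of all windows. Mest windows starting at 30737800 and 30737803 are nearly the same stretch, and both are among the 8. The hexamer holds a CpG pair, and these 54 windows had a median of 10 CpG pairs against 6 over all windows. The shares were not matched for CpG pairs, so the excess is a description only. None of the 4 stretches printed held it, but the full Plagl1 window, of which the printed stretch is the part before an annotated exon, held it once and is 1 of the 8. A match is a string of letters and not a bound site.

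The first result is which imprinted genes XEN cells expressed. With the filter on low counts, 26 of the 46 genes were tested, 13 of the 20 paternal genes, 12 of the 25 maternal genes and Gnas. Of the 20 not tested, 9 had no count in any of the 7 libraries. These were Igf2, the fetal growth factor, Mest, a hydrolase-like protein, Ndn and Magel2, both of the MAGE family, Dlk1, a Notch-ligand-like membrane protein, the non-coding RNA Mirg, the potassium channel genes Kcnq1 and Kcnk9, and the transporter gene Slc22a18. Another 10 had at most 6 counts in each library. These were the cation transporter genes Slc22a2 and Slc22a3, the ubiquitin ligase adaptor Asb4, the non-coding RNAs Meg3 and Rian, the cell cycle inhibitor Cdkn1c, the trophoblast factor Ascl2, Nnat, Zdbf2, and decorin (Dcn). The 4 genes of the Dlk1-Meg3 cluster thus stayed at or near 0 in all 7 libraries, deletion or not. A count of 0 allows up to 0.116 to 0.180 CPM, depending on the library, from counting error alone.

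Grb10, an adaptor that restrains insulin signalling and growth, was the remaining untested gene (chromosome 11, 11930508 to 12038683, minus strand). It had 2, 1 and 0 counts in WT_EV, 2 and 1 in DXp, and 10 and 2835 in DXp_DXm. Its level was 111 CPM in DXp_DXm replicate 2 and at most 0.415 CPM in each of the other 6 libraries. One library of the pair was therefore high and the other low, and the group has no common level. The filter on low counts removed the gene because a single library reached it. Ddc, the decarboxylase gene next to it, did not follow, at 1764 counts in DXp_DXm replicate 1 and 1246 in replicate 2.

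Between DXp and WT_EV, 11 of the 26 tested genes were higher and 7 lower (edgeR quasi-likelihood test, adjusted p under 0.05 over all 15331 tested genes). Paternally expressed genes made up most of the rises, with 8 of 13 higher and 2 lower, while 5 of 12 maternally expressed genes were lower and 3 higher. Plagl1, Ube3a, Zim1, Snrpn and Copg2 rose most, and Tssc4, Trappc9, Phlda2, H13 and Cd81 fell most. The background was as large, since 72.3% of all tested genes passed, 32.2% higher and 40.1% lower, against 69.2% of the imprinted genes. The median log2 change was 0.85 over the 26 genes, 1.10 over the paternal and -1.05 over the maternal ones, and -0.35 over all tested genes. A call by itself therefore sets no imprinted gene apart. The counts moved when 1 library was left out, as did those over all tested genes, and the ranges are given further below. A smaller amount of an RNA per cell and fewer cells that make it cannot be told apart in these bulk samples.

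Between DXp_DXm and WT_EV, 8 of the 26 genes were higher and 5 lower, where 66.8% of all tested genes passed, 30.9% higher and 36.0% lower. The higher genes were 6 paternal ones (Peg10, Ddc, Plagl1, Sgce, Snrpn and Impact) and the maternal genes Ube3a and Copg2. The lower genes were Tssc4, Trappc9, Cd81, Phlda2 and H13, all on the maternal list. No paternal gene was called lower. The median log2 change was 0.14 over the 26 genes, 0.90 over the paternal and -0.52 over the maternal ones, and -0.15 over all tested genes. This comparison and that of DXp share the 3 WT_EV libraries, so their values are not independent of each other.

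**Figure D1:**
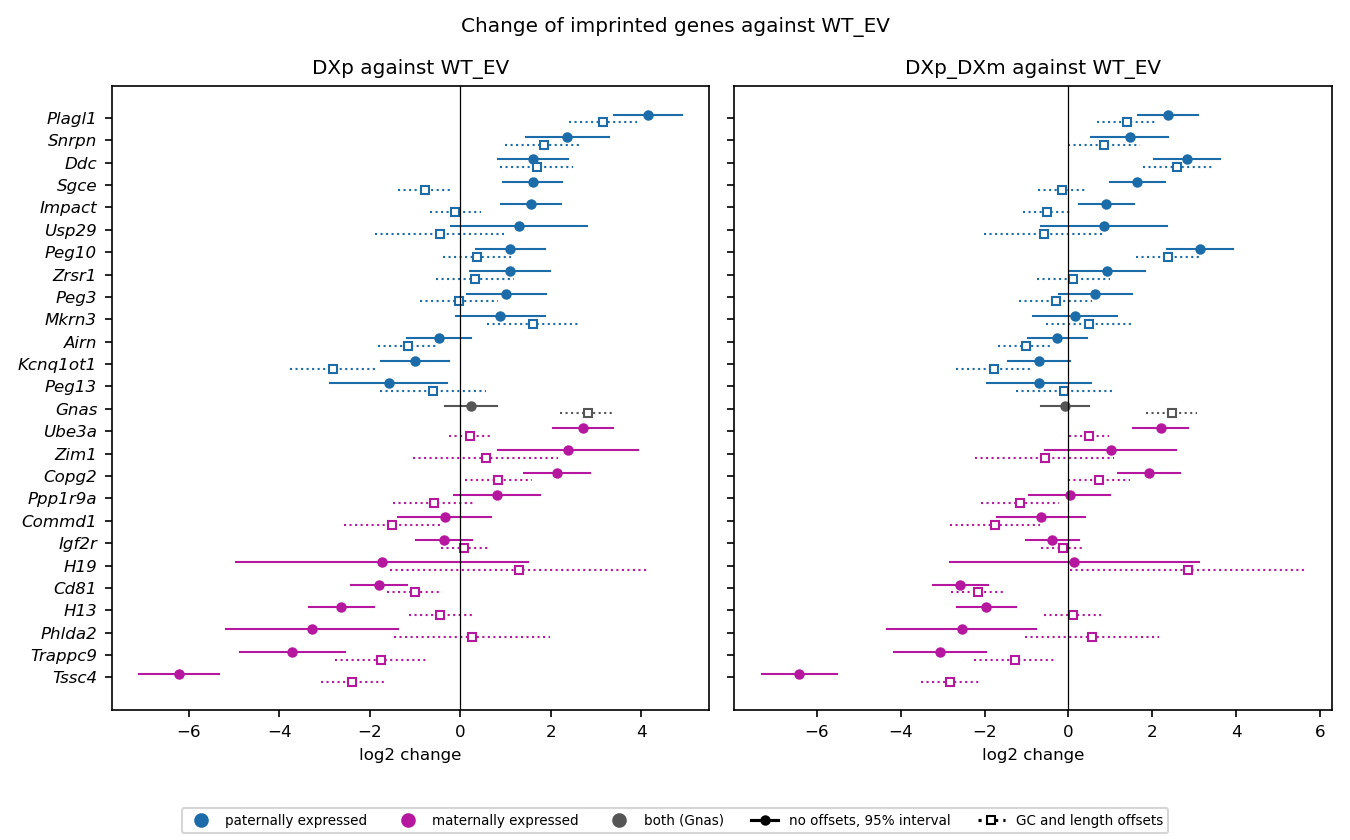
Log2 change of the 26 tested imprinted genes in DXp (left) and DXp_DXm (right) against WT_EV, with 95% intervals. Filled points are from the fit without offsets and open squares from the fit with offsets for GC content and length. Plagl1 and Ddc lie to the right of 0 and Tssc4, Cd81 and Trappc9 to the left with both kinds of fit, while Ube3a, H13 and Phlda2 move to within 1 of 0 with the offsets.

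The changes against WT_EV followed the base composition of the transcripts, in imprinted genes as in others. Among the tested imprinted genes with under 48% GC, 10 of 15 were higher and 1 lower in DXp (median log2 change 1.29). Among those at 48% or more, 1 of 11 was higher and 6 lower (median -1.73). Over all tested genes 32.2% were higher and 40.1% lower in DXp, and shares within these GC classes were not counted. The median log2 change in DXp over all genes was 1.48 at 42 to 45% GC and 0.58 at 45 to 48%. It was -0.34 at 48 to 51%, -1.70 at 51 to 54% and -3.03 at 54 to 57%. Across the 26 genes, GC content and log2 change had a Pearson correlation of -0.73 in DXp and -0.65 in DXp_DXm, and across 15311 genes -0.60 and -0.57. These are descriptions, since genes share libraries and are not replicates. Maternally expressed genes of this list include most of the GC-rich ones, such as Tssc4 (59.5% GC), Phlda2 (56.5%), H13 (56.0%) and Trappc9 (55.0%). Peg10 has 47.2% and Plagl1 46.4%.

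A fit with an offset per gene and library for GC content and length was therefore read beside the first. With these offsets 5 of the 26 genes were higher and 7 lower in DXp, against a background of 50.6% called, 24.6% higher and 26.0% lower. In DXp_DXm 4 were higher and 7 lower, against a background of 42.3%, with 20.3% higher and 21.9% lower. Of the paternal genes 4 were then higher and 3 lower in DXp, and 3 higher and 2 lower in DXp_DXm. No maternal gene was higher with offsets, while 4 of 12 were lower in DXp and 5 in DXp_DXm. Both fits called Plagl1, Snrpn and Ddc higher and Kcnq1ot1, Tssc4, Cd81 and Trappc9 lower in DXp. In DXp_DXm both called Peg10, Plagl1 and Ddc higher and Tssc4, Cd81 and Trappc9 lower. The offsets turned the call of 1 gene round, Sgce in DXp. Whether the base composition pattern came from the libraries or the cells was not tested.

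**Figure D2:**
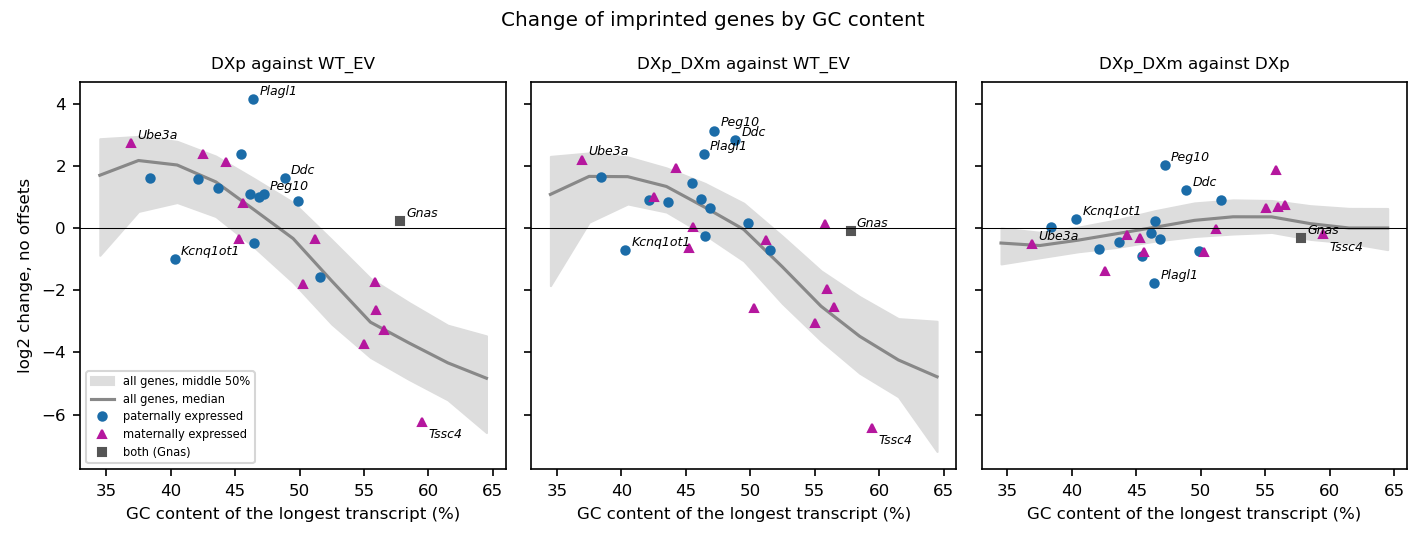
Log2 change (no offsets) of the tested imprinted genes against the GC content of the longest transcript, in the 3 comparisons. The grey line and band give the median and the middle 50% of all tested genes in bins of GC content. In both comparisons with WT_EV the imprinted genes follow the fall of the band, with Plagl1, Ddc and Gnas among those above it and Kcnq1ot1, Tssc4 and Cd81 among those below it, and between the deletions the band is much flatter.

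Plagl1, a zinc finger transcription factor that restrains cell growth and regulates other imprinted genes, showed the largest rise (chromosome 10, 13060504 to 13131694, plus strand). Its level was 10.9, 14.8 and 14.6 CPM in WT_EV, 308 and 165 CPM in DXp, and 85.0 and 54.0 CPM in DXp_DXm. All 4 deletion libraries lay above the WT_EV libraries, and both DXp libraries lay above both of DXp_DXm. Plagl1 rose by 4.14 (SE 0.34, adjusted p 6.02e-06) on the log2 scale in DXp and by 2.37 (SE 0.32, adjusted p 0.000140) in DXp_DXm. With offsets the rises were 3.15 (adjusted p 0.000152) and 1.40 (adjusted p 0.00777).

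In the Peg10 cluster, the retrotransposon-derived placental gene Peg10 was high in DXp_DXm (chromosome 6, 4747306 to 4760517, plus strand). Peg10 was at 104, 103 and 129 CPM in WT_EV, 168 and 313 CPM in DXp, and 649 and 1318 CPM in DXp_DXm. The WT_EV, DXp and DXp_DXm libraries did not overlap, with DXp_DXm highest. The rise in DXp_DXm was 3.13 (SE 0.35, adjusted p 4.65e-05), 2.37 (adjusted p 0.000868) with offsets, and 2.54 (adjusted p 0.000440) without DXp_DXm replicate 2. The smaller rise in DXp, 1.10 (SE 0.34, adjusted p 0.0148), was not called without DXp replicate 2 or with offsets, at 0.60 (adjusted p 0.193) and 0.36 (adjusted p 0.392). Sgce, which encodes epsilon-sarcoglycan and starts beside Peg10 on the other strand, was at 18.9, 16.1 and 28.4 CPM in WT_EV, 68.1 and 59.6 CPM in DXp, and 56.1 and 75.2 CPM in DXp_DXm. Its deletion libraries all exceeded WT_EV and overlapped each other. Sgce rose by 1.60 (SE 0.29, adjusted p 0.000721) in DXp and 1.64 (SE 0.29, adjusted p 0.000746) in DXp_DXm, but with offsets its change was -0.78 (adjusted p 0.0306) and -0.16 (adjusted p 0.639). At 38.4% GC it is among the most AT-rich genes of the list. Ppp1r9a, the maternally expressed gene of the actin-binding protein neurabin, was at 12.9, 15.2 and 19.9 CPM in WT_EV, 16.4 and 39.7 CPM in DXp, and 10.99 and 21.6 CPM in DXp_DXm. Its groups overlapped and neither comparison passed, at 0.81 (SE 0.42, adjusted p 0.109) and 0.028 (SE 0.43, adjusted p 0.960). Without DXp replicate 1 the DXp value was called, at 1.42 (adjusted p 0.0205), and with offsets the DXp_DXm value was called lower, at -1.15 (adjusted p 0.0476).

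In the Peg3 cluster the zinc finger gene Peg3 (chromosome 7, 6703892 to 6730431, minus strand) was among the most abundant imprinted transcripts. Peg3 was at 384, 386 and 502 CPM in WT_EV, 701 and 1008 CPM in DXp, and 337 and 988 CPM in DXp_DXm. Both DXp libraries exceeded WT_EV, and the DXp_DXm libraries lay on either side of it. The rise in DXp was 1.01 (SE 0.39, adjusted p 0.0392) and was not called without DXp replicate 2, WT_EV replicate 1 or WT_EV replicate 2, with 0.74 (adjusted p 0.220) the smallest. With offsets it was -0.037 (adjusted p 0.945). The DXp_DXm value, 0.64 (SE 0.39, adjusted p 0.171), was called without DXp_DXm replicate 1, at 1.30 (adjusted p 0.00634). Usp29, a ubiquitin-specific protease family gene read in the other direction from the same promoter region, was at 4.05, 4.30 and 13.1 CPM in WT_EV, 12.7 and 22.2 CPM in DXp, and 4.98 and 20.7 CPM in DXp_DXm. WT_EV replicate 3 was higher than the other WT_EV libraries and overlapped both deletions. Usp29 passed in neither comparison, at 1.29 (SE 0.67, adjusted p 0.107) and 0.85 (SE 0.67, adjusted p 0.284). Without WT_EV replicate 3 both were called, at 2.05 (adjusted p 0.0125) and 1.60 (adjusted p 0.0381), and the DXp value was also called without DXp_DXm replicate 1, at 1.38 (adjusted p 0.0466). Its values with offsets were -0.46 (adjusted p 0.565) and -0.58 (adjusted p 0.484). Zim1, the maternally expressed zinc finger gene of the cluster, ranged from 0.780 to 1.48 CPM in WT_EV, 1.64 to 9.81 in DXp and 1.66 to 2.75 in DXp_DXm. Its rise in DXp, 2.38 (SE 0.70, adjusted p 0.0108), rested on DXp replicate 2, without which it was 0.59 (adjusted p 0.467). Without DXp replicate 1 it was 3.27 (adjusted p 0.00118). With offsets it was 0.56 (adjusted p 0.533) and not called.

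The Snrpn cluster held the largest rise of a gene on the maternal list. Ube3a, the ubiquitin ligase that is imprinted in neurons (chromosome 7, 59228750 to 59311536, plus strand), was at 93.3, 105 and 148 CPM in WT_EV, 965 and 554 CPM in DXp, and 506 and 556 CPM in DXp_DXm. Every deletion library was at 506 CPM or more, and every WT_EV library at 148 CPM or less. Ube3a rose by 2.72 (SE 0.30, adjusted p 2.57e-05) in DXp and 2.20 (SE 0.29, adjusted p 0.000126) in DXp_DXm. It has the lowest GC content of the tested imprinted genes, 36.9%, and with offsets the changes were 0.21 (adjusted p 0.416) and 0.49 (adjusted p 0.0878). Snrpn, the paternally expressed gene of a spliceosomal core protein, was at 2.31, 1.56 and 3.30 CPM in WT_EV, 13.5 and 11.1 CPM in DXp, and 5.56 and 7.50 CPM in DXp_DXm. The groups did not overlap, with DXp highest. Snrpn rose by 2.37 (SE 0.41, adjusted p 0.000508) in DXp and was also called with offsets, 1.84 (adjusted p 0.00361). The rise in DXp_DXm was 1.46 (SE 0.41, adjusted p 0.00979), and 1.24 (adjusted p 0.0625) without DXp_DXm replicate 2 or 0.86 (adjusted p 0.0991) with offsets. Mkrn3, an intronless gene of a RING finger protein, ranged from 2.58 to 4.26 CPM in WT_EV to 4.67 to 8.49 in DXp and 3.23 to 4.67 in DXp_DXm. It was called higher in DXp with offsets, at 1.62 (adjusted p 0.0155), against 0.88 (SE 0.44, adjusted p 0.0967) without, and in DESeq2, at 1.04 (adjusted p 0.0474).

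All 4 tested genes of the Kcnq1ot1 cluster were lower in DXp, and 3 of 4 in DXp_DXm, where 40.1% and 36.0% of all tested genes were lower. With offsets 3 of the 4 were lower in each comparison, Phlda2 being the exception, where 26.0% and 21.9% of all tested genes were lower. Chromosome 7, which carries the cluster, had a median log2 change of -1.73 in DXp and -1.26 in DXp_DXm over 1125 tested genes. With offsets these medians were -0.50 and -0.37. Kcnq1ot1 itself, the paternal non-coding RNA that silences the cluster (chromosome 7, 143203458 to 143296549, minus strand, antisense within Kcnq1), was at 159, 196 and 227 CPM in WT_EV, 105 and 89.2 CPM in DXp, and 164 and 75.2 CPM in DXp_DXm. Both DXp libraries lay below WT_EV, and DXp_DXm replicate 1 lay within its range. Kcnq1ot1 fell in DXp, -0.997 (SE 0.34, adjusted p 0.0212), and further with offsets, -2.82 (adjusted p 0.000741). Without DXp replicate 1 or 2 the fall was not called without offsets, at -1.01 (adjusted p 0.0772) and -0.87 (adjusted p 0.116). In DXp_DXm the change was -0.70 (SE 0.33, adjusted p 0.0848), called at -1.78 (adjusted p 0.00705) with offsets and at -1.28 (adjusted p 0.0101) without DXp_DXm replicate 1. Its host gene Kcnq1 was listed at 0 in every library. The strand setting of the counting is not given in the sources used here, so reads of this overlapping pair, of Airn and Igf2r, of Zrsr1 and Commd1, of Peg13 and Trappc9, and of Copg2 and Mest may not be separated.

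Tssc4, a spliceosome assembly factor at the edge of the cluster (chromosome 7, 143069249 to 143071093, plus strand), showed the largest fall. Tssc4 was at 40.8, 38.4 and 30.7 CPM in WT_EV, 0.511 and 0.463 CPM in DXp, and 0.373 and 0.471 CPM in DXp_DXm. The deletion libraries held 9 to 12 counts each and WT_EV 512 to 910. Tssc4 fell, with changes of -6.22 (SE 0.40, adjusted p 4.46e-06) in DXp and -6.42 (SE 0.40, adjusted p 6.18e-06) in DXp_DXm on the log2 scale, a level 74.6 and 85.5 times lower. With 59.5% GC it is the most GC-rich of the tested imprinted genes, and the offsets reduced the changes to -2.39 (adjusted p 0.000377) and -2.82 (adjusted p 0.000325). Cd81, the neighbouring gene of a tetraspanin membrane protein, was at 298, 198 and 253 CPM in WT_EV, 64.9 and 78.6 CPM in DXp, and 34.4 and 49.3 CPM in DXp_DXm. The groups did not overlap and stood in the order WT_EV, DXp, DXp_DXm. Cd81 fell, with changes of -1.80 (SE 0.28, adjusted p 0.000257) in DXp and -2.58 (SE 0.29, adjusted p 4.81e-05) in DXp_DXm, with -1.01 (adjusted p 0.0123) and -2.15 (adjusted p 0.000655) with offsets. Phlda2, a gene known to restrain placental growth, ranged from 1.38 to 5.85 CPM in WT_EV, 0.154 to 0.562 in DXp and 0.373 to 0.786 in DXp_DXm. The changes, -3.28 (SE 0.85, adjusted p 0.00580) and -2.55 (SE 0.80, adjusted p 0.0169), rested on 4 to 20 counts in each deletion library. They were not called with offsets, at 0.25 (adjusted p 0.804) and 0.57 (adjusted p 0.548). In DXp the value ran from -2.58 (adjusted p 0.0525) without DXp replicate 2 to -4.30 (adjusted p 0.0128) without DXp replicate 1, with -2.67 (adjusted p 0.0206) without WT_EV replicate 1. In DXp_DXm the call was lost without DXp_DXm replicate 1, -2.03 (adjusted p 0.115), or WT_EV replicate 1, -1.95 (adjusted p 0.0631), and was -3.17 (adjusted p 0.0399) without DXp_DXm replicate 2.

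Ddc, the gene of aromatic L-amino acid decarboxylase (chromosome 11, 11814101 to 11898144, minus strand), rose in both deletions. Ddc was at 8.16, 8.40 and 9.18 CPM in WT_EV, 35.8 and 16.6 CPM in DXp, and 73.1 and 48.9 CPM in DXp_DXm. The 3 groups did not overlap, and DXp_DXm was highest. The rises were 1.61 (SE 0.35, adjusted p 0.00202) in DXp and 2.83 (SE 0.35, adjusted p 8.32e-05) in DXp_DXm. They moved little with offsets, to 1.68 (adjusted p 0.00423) and 2.60 (adjusted p 0.000833). Its GC content, 48.9%, is close to that at which the band of all genes crosses 0.

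Of the H19 cluster only the non-coding RNA H19 was counted, its partner Igf2 being listed at 0. H19 had 177, 110 and 0 counts in WT_EV, 27 and 40 in DXp, and 51 and 219 in DXp_DXm. In CPM, the WT_EV libraries, with 1 at 0, spanned all of the deletion libraries. H19 passed in neither comparison, at -1.73 (SE 1.41, adjusted p 0.294) and 0.14 (SE 1.29, adjusted p 0.933). Without WT_EV replicate 3 it was called lower in DXp, at -2.33 (adjusted p 0.0127). With offsets the values were 1.29 (adjusted p 0.414) and 2.84 (adjusted p 0.0930), neither called.

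Igf2r and its antisense RNA passed in neither comparison without offsets. Igf2r, the receptor that clears IGF2 (chromosome 17, 12682406 to 12769664, minus strand), was at 145, 177 and 122 CPM in WT_EV, 86.6 and 144 CPM in DXp, and 103 and 124 CPM in DXp_DXm. Its antisense RNA Airn, which silences the paternal Igf2r copy, was at 16.4, 23.3 and 28.2 CPM in WT_EV, 16.1 and 16.4 CPM in DXp, and 22.02 and 15.8 CPM in DXp_DXm. The deletion and WT_EV libraries overlapped for both genes. Igf2r changed by -0.36 (interval -0.99 to 0.27, adjusted p 0.268) in DXp and -0.38 (interval -1.01 to 0.25, adjusted p 0.253) in DXp_DXm, neither past the test. Airn was at -0.48 (adjusted p 0.196) and -0.26 (adjusted p 0.481). With offsets Airn was called lower, at -1.16 (adjusted p 0.00912) and -1.02 (adjusted p 0.0198), while Igf2r was not, at 0.088 and -0.12.

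Copg2, the gene of a COPI coat subunit that overlaps the end of Mest (chromosome 6, 30747554 to 30896794, minus strand), was at 10.02, 11.6 and 9.66 CPM in WT_EV, 31.0 and 60.3 CPM in DXp, and 31.9 and 46.8 CPM in DXp_DXm. All deletion libraries lay above WT_EV. Copg2 rose by 2.13 (SE 0.33, adjusted p 0.000240) and 1.92 (SE 0.33, adjusted p 0.000589), but passed in neither comparison with offsets, at 0.84 (adjusted p 0.0583) and 0.73 (adjusted p 0.102). Impact, which inhibits the stress kinase GCN2, was at 62.1, 67.0 and 116 CPM in WT_EV, 274 and 208 CPM in DXp, and 154 and 151 CPM in DXp_DXm. Again no deletion library overlapped WT_EV, with DXp highest. Impact rose by 1.56 (SE 0.29, adjusted p 0.000871) and 0.90 (SE 0.29, adjusted p 0.0207). The 400 tested genes of its chromosome had a median of 0.96 in DXp and 0.41 in DXp_DXm. With offsets Impact was at -0.11 (adjusted p 0.725) and -0.51 (adjusted p 0.131), against chromosome medians of 0.76 and 0.083. Its DXp_DXm call was also lost without WT_EV replicate 1, WT_EV replicate 2 or either DXp_DXm library, where it ran from 0.72 (adjusted p 0.0794) to 0.97 (adjusted p 0.0529).

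Zrsr1 is a splicing factor gene, copied by retrotransposition, that lies in an intron of Commd1 (chromosome 11, 22972005 to 22976496, plus strand). Zrsr1 was at 12.2, 11.6 and 12.2 CPM in WT_EV, 13.3 and 37.9 CPM in DXp, and 26.2 and 19.4 CPM in DXp_DXm. DXp replicate 1 was close to WT_EV and replicate 2 far above it. The rise in DXp, 1.10 (SE 0.40, adjusted p 0.0302), was 0.16 (adjusted p 0.712) without DXp replicate 2, 1.77 (adjusted p 0.00137) without DXp replicate 1, and was not called without any 1 of the WT_EV libraries or with offsets, 0.33 (adjusted p 0.497). The DXp_DXm value was 0.93 (SE 0.40, adjusted p 0.0624) and was called without DXp replicate 1, 1.001 (adjusted p 0.00933), or DXp replicate 2, 0.94 (adjusted p 0.0167). Commd1, a copper metabolism gene, ranged from 6.78 to 9.29 CPM in WT_EV, 3.48 to 8.65 in DXp and 3.73 to 6.10 in DXp_DXm. It passed in neither comparison without offsets, -0.35 (adjusted p 0.514) and -0.65 (adjusted p 0.237), and was called lower with them, -1.52 (adjusted p 0.0237) and -1.76 (adjusted p 0.0164).

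Trappc9, a subunit of a vesicle tethering complex (chromosome 15, 72589620 to 73061204, minus strand), fell in both deletions. Trappc9 was at 11.3, 13.6 and 10.3 CPM in WT_EV, 0.767 and 1.004 CPM in DXp, and 0.829 and 1.96 CPM in DXp_DXm. Every deletion library lay far below WT_EV. The falls were -3.71 (SE 0.52, adjusted p 0.000120) and -3.06 (SE 0.50, adjusted p 0.000400), with -1.75 (adjusted p 0.0107) and -1.27 (adjusted p 0.0404) with offsets. Without DXp_DXm replicate 2 the second was -3.80 (adjusted p 0.000901). Peg13, the paternal non-coding RNA that lies in a Trappc9 intron, was at 22.3, 20.1 and 8.34 CPM in WT_EV, 5.62 and 5.64 CPM in DXp, and 16.2 and 4.71 CPM in DXp_DXm. Both DXp libraries lay below WT_EV, whose replicate 3 was the lowest, while DXp_DXm replicate 1 lay within WT_EV. Peg13 fell in DXp, -1.59 (SE 0.58, adjusted p 0.0301), a call lost with offsets, -0.60 (adjusted p 0.360), and without WT_EV replicate 1, WT_EV replicate 2 or either DXp library, where it ran from -1.36 (adjusted p 0.0848) to -1.58 (adjusted p 0.121). In DXp_DXm it did not pass, -0.70 (SE 0.55, adjusted p 0.286), but did without DXp_DXm replicate 1, -1.76 (adjusted p 0.0351).

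Gnas, which encodes the stimulatory G protein alpha subunit (chromosome 2, 174284320 to 174346744, plus strand), was nearly level. It was at 186, 169.8 and 233 CPM in WT_EV, 187 and 275 CPM in DXp, and 167 and 201 CPM in DXp_DXm. The 3 groups overlapped. Its changes were 0.23 (interval -0.33 to 0.80, adjusted p 0.421) and -0.091 (interval -0.66 to 0.48, adjusted p 0.769). Most genes near its GC content, 57.8%, fell, and with the offsets Gnas was called higher, at 2.81 (adjusted p 0.000114) and 2.46 (adjusted p 0.000319). H13, the signal peptide peptidase gene on the same chromosome (chromosome 2, 152669461 to 152708670, plus strand), was at 75.1, 58.3 and 80.7 CPM in WT_EV, 9.82 and 13.1 CPM in DXp, and 22.3 and 14.5 CPM in DXp_DXm. No deletion library overlapped WT_EV. H13 fell, with changes of -2.63 (SE 0.32, adjusted p 5.16e-05) in DXp and -1.95 (SE 0.31, adjusted p 0.000367) in DXp_DXm, and with offsets was at -0.45 (adjusted p 0.253) and 0.10 (adjusted p 0.808).

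**Figure D3:**
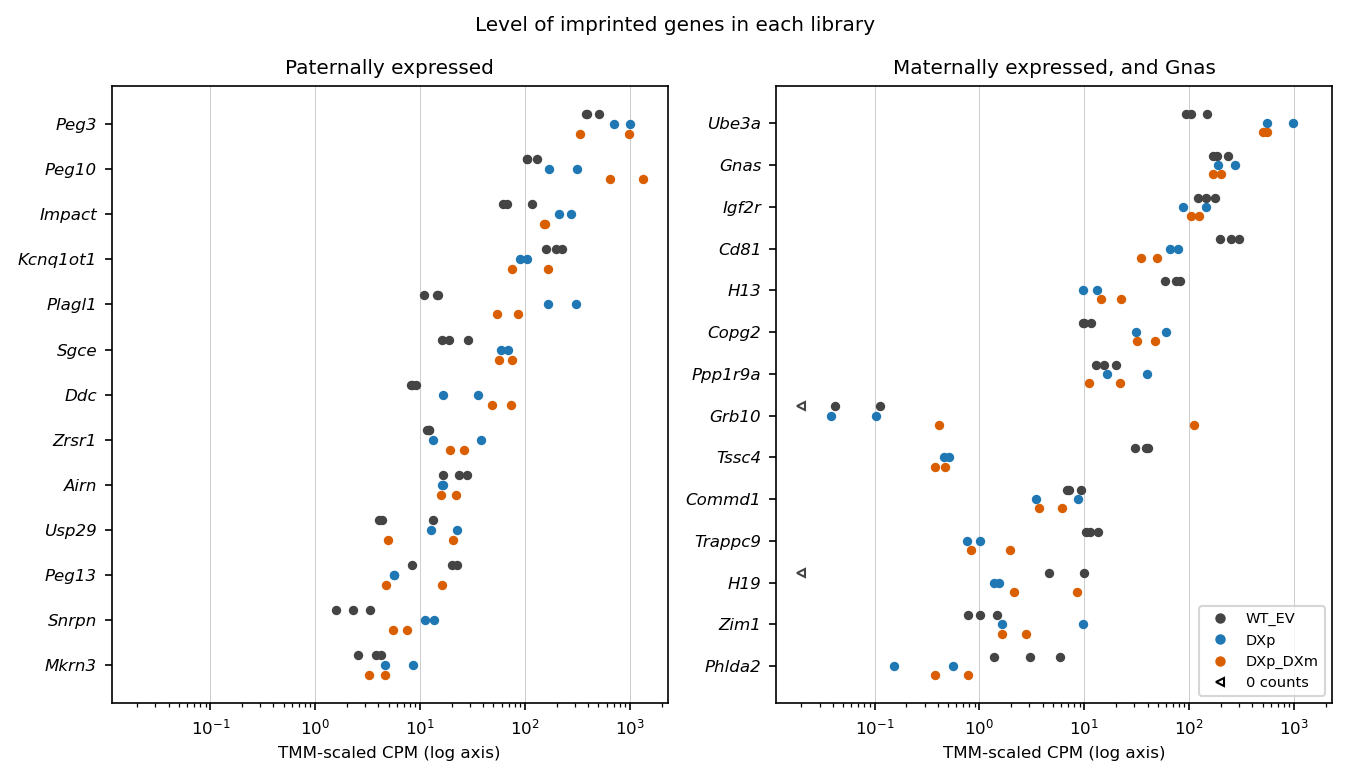
Level of each tested imprinted gene, and of Grb10, in the 7 libraries, as TMM-scaled CPM on a log axis, with paternal genes on the left and maternal genes and Gnas on the right. Each point is 1 library and open triangles are 0 counts. Plagl1 lies higher and Tssc4 and Trappc9 lower in all 4 deletion libraries than in WT_EV, with wide gaps, and Grb10 has 1 DXp_DXm library at 111 CPM with the rest near 0.

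Levels were set against each other per kilobase of annotated exon length. In WT_EV, Cd81 was the most abundant imprinted transcript at 86.8 ± 17.4 CPM per kb (SD, n = 3), followed by Peg3 at 31.1 ± 4.99. Tssc4, Gnas, Peg10, Impact and Igf2r came next, at 19.9 ± 2.86, 17.2 ± 2.89, 16.8 ± 2.22, 15.9 ± 5.78 and 15.9 ± 2.97 CPM per kb, and do not differ beyond their spread. In DXp, Peg3 led at 62.8 ± 16.0 CPM per kb (n = 2), before Impact at 47.0 ± 9.05, Ube3a at 36.8 ± 14.1, Peg10 at 36.1 ± 15.3 and Plagl1 at 30.3 ± 12.9. Their spreads overlap from 1 to the next. In DXp_DXm, Peg10 led at 148 ± 70.9 CPM per kb (n = 2), before Peg3 at 48.6 ± 33.8, Impact at 29.7 ± 0.385 and Ube3a at 25.7 ± 1.72. Cd81 was at 24.9 ± 3.35 CPM per kb in DXp and 14.5 ± 3.66 in DXp_DXm. Plagl1, at 1.71 ± 0.282 CPM per kb in WT_EV, was among the low genes there.

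The deletions were then compared with each other, where WT_EV enters only through the shared estimate of spread. None of the 26 imprinted genes passed in either direction, where 0.444% of all tested genes did (edgeR, 0.280% higher and 0.163% lower in DXp_DXm). The unadjusted p was under 0.05 for 4 of the 26 (15.4%), against 20.8% of all tested genes. DESeq2 called 1 tested gene higher, Peg10, and 1 lower, Plagl1, and it also called Grb10 higher. Over the 13963 genes with an adjusted p, DESeq2 called 499 higher and 544 lower. The median log2 change was -0.21 over the imprinted genes and 0.02 over all. With offsets none passed either, against a background of 0.241% (0.130% higher and 0.111% lower).

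Peg10 was higher and Plagl1 lower in DXp_DXm than in DXp, by values just outside the threshold. Peg10 differed by a log2 of 2.03 (SE 0.39, interval 1.15 to 2.91, edgeR adjusted p 0.0590), a mean of 983 against 240.5 CPM. Its DESeq2 adjusted p was 0.000414. Plagl1 differed by -1.77 (SE 0.36, interval -2.57 to -0.96, adjusted p 0.0607), 69.5 against 237 CPM, with 0.000411 in DESeq2. For both genes the libraries of the 2 groups did not overlap, and the offsets left the values at 2.01 and -1.76. Without WT_EV replicate 3, which enters only through the shared spread, both were called, at 2.03 (adjusted p 0.0387) and -1.77 (adjusted p 0.0408). Of the 15067 genes tested in that fit, 258 were called higher and 222 lower.

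Ddc and Cd81 were the other 2 genes with an unadjusted p under 0.05. Ddc was higher in DXp_DXm by 1.22 (interval 0.36 to 2.08, adjusted p 0.123) and Cd81 lower, at -0.78 (interval -1.43 to -0.13, adjusted p 0.171). Impact was at -0.66 (interval -1.39 to 0.066), close to the median of -0.63 over the 400 tested genes of its chromosome in this comparison. The intervals of Igf2r, Gnas, Airn and Sgce were -0.70 to 0.66, -0.95 to 0.30, -0.55 to 0.98 and -0.68 to 0.76, so changes of up to about these sizes are not excluded by the test. Tssc4, with at most 12 counts in each of the 4 libraries, was at -0.20 (-1.12 to 0.73).

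**Figure D4:**
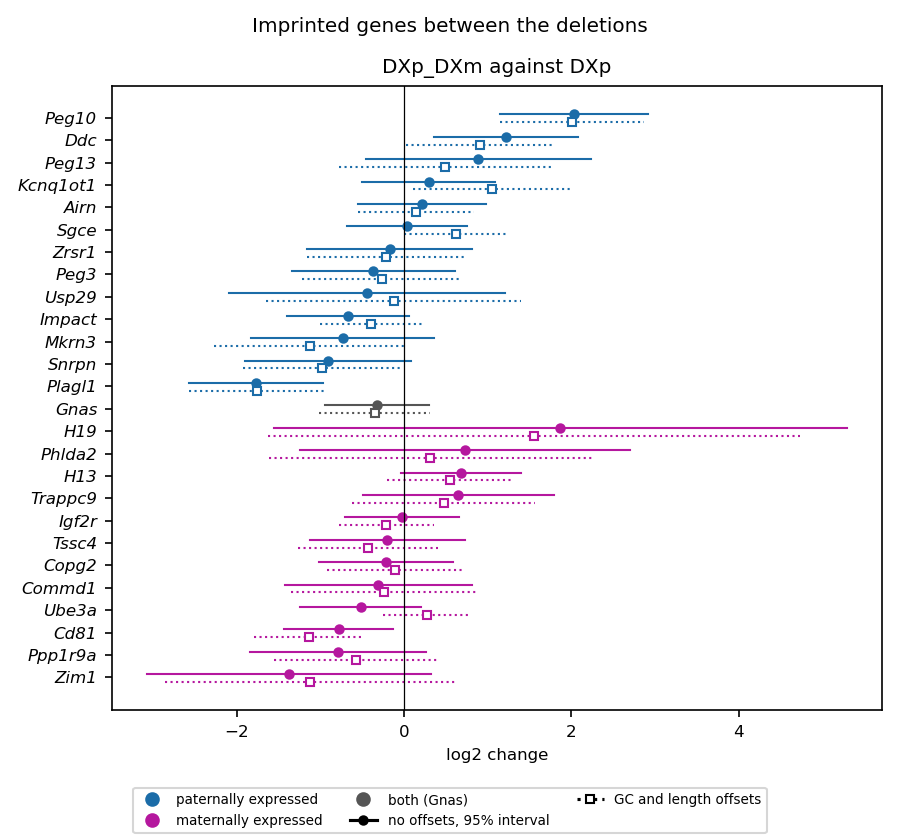
Log2 change of the 26 tested imprinted genes in DXp_DXm against DXp with 95% intervals, without (filled) and with (open) offsets for GC content and length. Peg10 lies farthest to the right among genes with narrow intervals and Plagl1 to the left, and most other intervals include 0.

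A ratio of the counts of neighbouring genes in 1 library does not depend on how libraries are scaled. Of 10 pairs of an imprinted gene and its neighbour, 6 had enough counts. With groups this small the exact permutation test (two-sided) cannot give less than 0.1 against WT_EV or 0.333 between the deletions, and the lowest p adjusted over the 18 tests was 0.36, so the ratios are descriptions. Airn over Igf2r differed little between groups, with log2 ratios of -3.15, -2.92 and -2.11 in WT_EV, -2.43 and -3.13 in DXp, and -2.23 and -2.97 in DXp_DXm. All groups overlapped for this pair. Zrsr1 over its host Commd1 was 0.39, 0.70 and 0.85 in WT_EV, 1.93 and 2.13 in DXp, and 2.10 and 2.37 in DXp_DXm. Every deletion library lay above WT_EV, by 1.38 on average in DXp and 1.59 in DXp_DXm. Peg13 over Trappc9 was 0.98, 0.57 and -0.31 in WT_EV, 2.83 and 2.47 in DXp, and 4.25 and 1.25 in DXp_DXm, also without overlap with WT_EV. Peg10 over Sgce was 2.46, 2.69 and 2.19 in WT_EV, 1.31 and 2.39 in DXp, and 3.53 and 4.13 in DXp_DXm, highest in both DXp_DXm libraries. Snrpn over Ube3a was -5.32, -6.05 and -5.48 in WT_EV, -6.16 and -5.64 in DXp, and -6.50 and -6.21 in DXp_DXm, lower in DXp_DXm than in the other libraries. Peg3 over Zim1 was 8.53, 8.01 and 9.28 in WT_EV, 8.72 and 6.68 in DXp, and 7.65 and 8.48 in DXp_DXm, with all groups overlapping. The 2 genes of a pair can differ in GC content, so a ratio does not remove the pattern described above. Of these pairs Zrsr1 and Commd1 are the closest, at 46.2 and 45.3% GC, but their reads may not be separable.

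**Figure D5:**
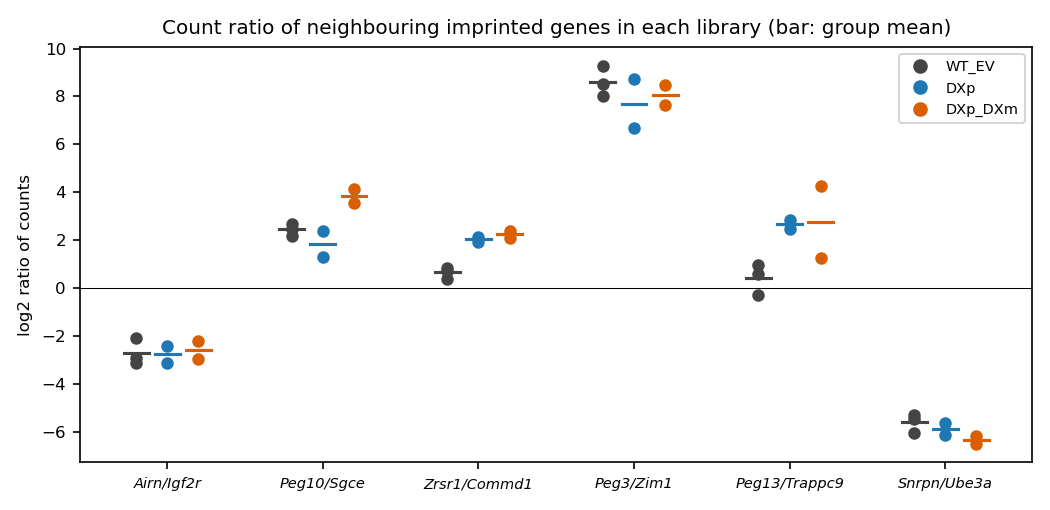
Log2 ratio of the counts of 2 neighbouring imprinted genes in each library, with the group mean as a bar. The deletion libraries lie above WT_EV for Zrsr1/Commd1 and Peg13/Trappc9, DXp_DXm lies above the others for Peg10/Sgce, and the 3 groups overlap for Airn/Igf2r.

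The WT_clone libraries could be read for 4 of the imprinted genes, since their table was held for chromosomes 1, 2, X and part of 3. In the shared genes 3302 were tested over 9 libraries. The 2 tables may have been made separately. Nnat and Zdbf2 had 0 to 2 counts in each WT_clone library. Gnas had 11890 and 4263 counts in WT_clone, or 1794 and 721 CPM over the shared genes, and H13 1771 and 1187 counts, or 267 and 201. Between the wild types neither passed, where 30.6% of shared genes did and 23.8% with offsets, with Gnas at 0.16 and H13 at -0.80 (adjusted p 0.0642). H13 fell against WT_clone too, by 2.21 in DXp (adjusted p 0.000643, background 40.2%) and 1.57 in DXp_DXm (adjusted p 0.00629, background 25%). Without DXp_DXm replicate 2 the second fall was 1.25 and not called. Of the second background 7.36% were higher and 17.6% lower. With offsets, where 14.5% and 5.94% of shared genes passed, H13 was at 0.027 and 0.52 and neither was called. Gnas was at -0.31 and -0.66 without offsets, and was called higher with them, at 2.15 (adjusted p 0.00865) and 1.76 (adjusted p 0.0302). The 2 WT_clone libraries differed widely for Gnas, and without WT_clone replicate 2 the DXp_DXm value was -1.19 without offsets and called lower.

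Genes that set or keep imprints were read from a separate list of 23, of which 21 were tested. Against WT_EV 11 were higher and 7 lower in DXp, and 10 higher and 7 lower in DXp_DXm, with median log2 changes of 1.34 and 0.71. The share of all tested genes called was 72.3% and 66.8%. With offsets 8 were higher and 6 lower, and 4 higher and 6 lower, where 50.6% and 42.3% of all tested genes were called. Dnmt1, which copies DNA methylation at replication, was at 49.3 ± 7.70 CPM against 400.4 ± 33.9 CPM in DXp against WT_EV, a log2 change of -3.02, or -1.36 with offsets. Trim28, the corepressor that ZFP57 and ZFP445 recruit to imprinted control regions, was at 17.7 ± 2.04 CPM against 472 ± 134 CPM (-4.73, or -1.24 with offsets). Ehmt2, a histone H3 lysine methyltransferase, was at 5.74 ± 0.852 CPM against 195 ± 58.0 CPM (-5.09, or -1.62). Suz12, a Polycomb subunit, was at 1446 ± 201 CPM against 86.6 ± 10.8 CPM (4.06, or 2.32). In DXp_DXm the same 4 genes were at -2.44, -4.00, -4.21 and 3.57 without offsets and passed in both kinds of fit. Between the deletions none of the 21 passed, the lowest p being that of the methyltransferase gene Dnmt3a, at 27.4 ± 14.96 CPM against 97.5 ± 24.7 CPM (-1.83, adjusted p 0.0653).

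A second list held 30 further imprinted genes, of which 11 were tested. In DXp 5 were higher and 3 lower, and in DXp_DXm 4 were higher and 2 lower, with medians of 0.60 and 0.21, where 72.3% and 66.8% of all tested genes were called. With offsets 4 were higher and 1 lower, and 1 higher and 1 lower, where 50.6% and 42.3% were. Gab1, a signalling adaptor, was called higher in both deletions by both fits, at 173 ± 123 CPM against 29.1 ± 7.88 CPM in DXp against WT_EV (2.57, or 3.75 with offsets) and 1.87 in DXp_DXm, or 2.66. Pon2 and Phactr2 were higher in DXp by 2.67 and 2.36, and in neither deletion with offsets. Smoc1 fell, at -1.51 in DXp and -1.85 in DXp_DXm, again without offsets only. Between the deletions none of the 11 passed.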

How the data were processed

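FastQC, STAR 2.7.9a, featureCounts 2.0.1 and GRCm38 are named, per the submitters' processing notes. The deposited values are whole-number counts of reads per gene, not normalized by the authors. Which annotation release, strand setting and rule for multiply mapped reads were used is not given in the sources used here. Of the 46 genes, 45 have the start and end of GENCODE M21. For WT_clone 11512 genes were held, and 1 line without a count was left out. The genes and lists were chosen with earlier results of these data known.

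From the counts, edgeR 4.0.16 (R 4.3.3) was run over 7 libraries in 1 fit (filterByExpr, TMM, robust quasi-likelihood test, Benjamini-Hochberg over 15331 genes, called at an adjusted p under 0.05). Every adjusted p in the text is from it unless another tool is named. The biological coefficient of variation was 33.7%. A second fit over 9 libraries used the 3302 tested genes shared with the WT_clone table. SE is the log2 change divided by the square root of F, and intervals are 95%. Offsets were a spline (5 degrees of freedom) of log2 CPM on GC content of the longest transcript and log length, per library, fitted on genes with a mean count of at least 10. Ratios used a pseudocount of 0.5. Values per library are given for genes with a mean of at least 10 CPM in 1 group, and for other lists the 4 lowest p. Alternatives were DESeq2 1.42.0, RLE scaling, no filter, offsets, no histone or small RNA genes, a replicate block, each library left out, and a pseudocount of 5. The edgeR fit was tested on simulated counts with known changes in DXp against WT_EV. It called 0 of 48 changes of 1.5-fold, 3 of 48 of 2-fold, 28 of 48 of 4-fold and 44 of 49 of 8-fold. Of 14538 unchanged genes it called 1. The simulation changed few of its 14731 genes, while 72.3% of tested genes were called in the real comparison. Adjustment for multiple tests was therefore stricter in the simulation, and its shares are not the power of the real fit. A gene that did not pass may still have changed by 2-fold or more. Replicate numbers were not used to pair libraries in the main fit. Same-numbered DXp and DXp_DXm libraries had deviations with a correlation of -0.201 over genes. With 2 libraries in each of these groups the deviations mirror each other. By the other number of the DXp titles the value is therefore 0.201 by construction.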

Additional observations from a re-analysis of the deposited data

How the results depend on the processing

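With offsets for GC content and length, 5 imprinted genes were higher in DXp against WT_EV instead of 11, and 4 in DXp_DXm instead of 8. With a replicate block and offsets together both counts were 4, where 3422 and 2682 of all 15331 tested genes were higher. Between the deletions, where none was called, DESeq2 and the fit without a filter each called 2 higher and 1 lower, and the replicate block alone called 1 higher. Over all genes these fits called 499 higher and 544 lower of 13963, 852 and 584 of 27732, and 43 and 49 of 15331. Leaving out 1 library at a time gave 7 to 12 higher and 4 to 8 lower in DXp, 6 to 10 higher and 4 to 6 lower in DXp_DXm, and 0 to 1 higher and 0 to 1 lower between the deletions. Calls over all genes moved as well. Without 1 WT_EV library, of 14953 to 15078 genes, 4412 to 4978 were higher and 5515 to 6036 lower in DXp. In DXp_DXm 4051 to 4710 were higher and 4885 to 5434 lower. Between the deletions 3 to 258 were higher and 1 to 222 lower in these fits. Leaving out a DXp or DXp_DXm library keeps 1 library in that group, and the calls from such fits are no measure of the imprinted genes. Grb10 entered the fits without either DXp library or without DXp_DXm replicate 1, so counts there can include it. RLE scaling, and leaving out histone and small RNA genes, kept each count within 1.5 times.

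Among genes called with offsets, without them, or both ways, offsets turned the sign of these log2 changes in DXp: Sgce to -0.78, Peg3 to -0.037, Phlda2 to 0.25 and Impact to -0.11. With the replicate block as well, Sgce was at -0.63 and Zim1 at -0.024. In DXp_DXm, by the same criterion, the offsets gave Sgce -0.16, Ppp1r9a -1.15, Phlda2 0.57, Gnas 2.46, H13 0.10 and Impact -0.51. Signs also turned, with no call in either fit, for H19, Igf2r, Ppp1r9a and Usp29 in DXp and for Peg3, Zim1 and Usp29 in DXp_DXm. The replicate block with offsets in DXp_DXm gave Sgce -0.0075, Ppp1r9a -1.12, Phlda2 0.36, Gnas 2.75, H13 0.34 and Impact -0.26. Against WT_clone, offsets moved Gnas to 2.15 in DXp and 1.76 in DXp_DXm, and H13 to 0.027 and 0.52. H13 in WT_clone against WT_EV passed in DESeq2, at -0.90.

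With 1 library left out, Gnas ranged from -0.82 to 0.50 in DXp and -1.19 to 0.18 in DXp_DXm against WT_clone, and from -0.62 to 0.69 in WT_clone against WT_EV. H13 ranged from -2.45 to -1.98, -1.88 to -1.25 and -1.003 to -0.59 in the same comparisons. Where an arm keeps 1 library, it is assumed to vary like the others. The cause of these shifts was not tested.

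Same-numbered libraries had deviations with correlations from -0.201 to 0.0573. By the other number of the DXp titles, the correlation between DXp and DXp_DXm libraries is 0.201. This is the same value with its sign turned, as must be with 2 libraries a group, and adds no information. Which number is right, and whether it pairs libraries, was not tested. Over all genes between the deletions, the replicate block called 43 higher and 49 lower against 43 and 25 without it. The crossed replicate block takes the other number of the DXp titles and was chosen after seeing the data. It called 884 genes higher and 689 lower, of which 1 imprinted gene was higher and 1 lower. Genes with few counts (Phlda2, Tssc4 in the deletions, Zim1, H19) are limited by depth, and 2 libraries a group by the spread.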

Other observations

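Grb10 was singled out after its values were seen. Among all 55401 genes, 2 had at least 1000 counts in 1 library and at most 10 in each of the other 6. These were Grb10, with 2835 counts in DXp_DXm replicate 2, and the histone gene Hist1h2an, with 1914 counts in WT_EV replicate 3. In DXp_DXm replicates 1 and 2, the neighbours of Grb10 with counts were at 10702 and 7639 for Fignl1, which encodes a protein of DNA repair, and at 1764 and 1246 for Ddc. Both were thus lower, not higher, in the library that held Grb10 reads. DESeq2, which does not apply the filter on low counts used here, gave Grb10 a log2 change of 10.14 against WT_EV (adjusted p 1.35e-05) and 9.57 against DXp (adjusted p 0.00307). Without the filter edgeR gave 9.94 against WT_EV (adjusted p 0.0664). With DXp replicate 1, DXp replicate 2 or DXp_DXm replicate 1 left out, the filter kept Grb10 and edgeR called it higher against WT_EV. The values were 10.045, 9.938 and 10.999, and the last leaves only the high library in DXp_DXm. With both WT_EV and DXp at or under 2 counts in each library, these fold changes depend on the prior and are no measure of size.

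Among the other listed imprinted genes, Qpct, which encodes glutaminyl cyclase, was lower in DXp_DXm than in DXp, at 11.8 against 98.5 CPM. Its adjusted p was 0.186 in edgeR, and it was named after its value was seen.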
